A study of Homo sapiens with 2 samples.

Results

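The adrenergic core transcription factors measured here were GATA2, GATA3, TBX2, ISL1, PHOX2A, HAND1, HAND2 and INSM1, a set of 8 genes taken by name. They were found through the gene symbols of the array's annotation, in which all 8 had a named probe set, ISL1 had 2 of them and the set had 9 in all. The array held 16098 named probe sets of 14884 genes among its 53617 probe sets. RNA came from BE(2)-C, an established human neuroblastoma cell line with amplified MYCN, and both cultures carried that amplification. One culture had been transfected with control siRNA, a scrambled sequence, and the other with linc00467 siRNA, which the methods call linc00467 siRNA-1. Total RNA was taken 48 hours later and put on Affymetrix HuGene-2_0-st arrays, 1 per culture, called the control array and the knockdown array. A single cell line, a single siRNA against the target and a single culture per condition were thus compared, so that no replicate error, test or p-value could be had for any difference. The number of arrays limits the precision.

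Neuroblastoma arises from the sympathetic lineage of the neural crest, and most neuroblastoma cells keep a noradrenergic identity. That identity is held by a small circuit of transcription factors that bind their own enhancers and those of each other. In the developing sympathetic ganglion, BMP signals act upstream of PHOX2A, HAND2, GATA2, GATA3, ISL1 and INSM1 and of the enzymes of noradrenaline synthesis. Neuroblastoma cells of the mesenchymal state use another set of factors, such as PRRX1 and the AP-1 proteins. The comparison asked how the adrenergic factors stood when LINC00467, a long intergenic noncoding RNA, was targeted.

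The targeted RNA was measured first. The log2 level of LINC00467 (probe set 16677153) was 6.55 on the control array and 5.67 on the knockdown array, so that the log2 difference, knockdown minus control as everywhere here, was -0.88. Over all named probe sets the median difference was 0.00 with a robust SD of 0.13, and over the brighter 8049 of them the robust SD was 0.18. Brighter means a mean log2 level of 5.68 or more, the median of named probe sets. A robust SD is the median absolute deviation scaled to an SD, and here it describes how far probe sets differed between the 2 arrays. The noradrenergic label of the cells was checked against TH, DBH and CHGA, which encode the first enzyme of catecholamine synthesis, the enzyme that makes noradrenaline and a granule protein. All 3 were among the brighter probe sets, with mean log2 levels from 6.47 for TH to 9.97 for CHGA.

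Of the 8 factors, 6 had a lower level on the knockdown array than on the control array, 1 had the same value on both and ISL1 was higher. The differences were small. TBX2 and GATA3 lay 1.2 fold or more below control, ISL1 lay 1.2 fold or more above it, and the other 5 were nearer to control. These counts make 25.0% and 12.5% of the set. Of all named probe sets, 9.78% were that far below control and 8.5% that far above it. For the brighter ones, to which all 9 probe sets of the 8 genes belonged, the shares were 13.4% and 10.7%. A single gene is 12.5% of the set, so that both counts were within about 1 gene of the background and are no result about the members. The median difference of the 8 genes was -0.19 on the log2 scale, against 0.00 over all 14884 named genes, and the range was from -0.50 to 0.29. Below 0 were 6 of the 8, and so were 42.5% of the brighter named probe sets. None of the 8 differed by 1.5 fold or more. Since the RNA came from whole cultures, fewer cells of a type and less RNA per cell cannot be told apart.

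**Figure D1:**
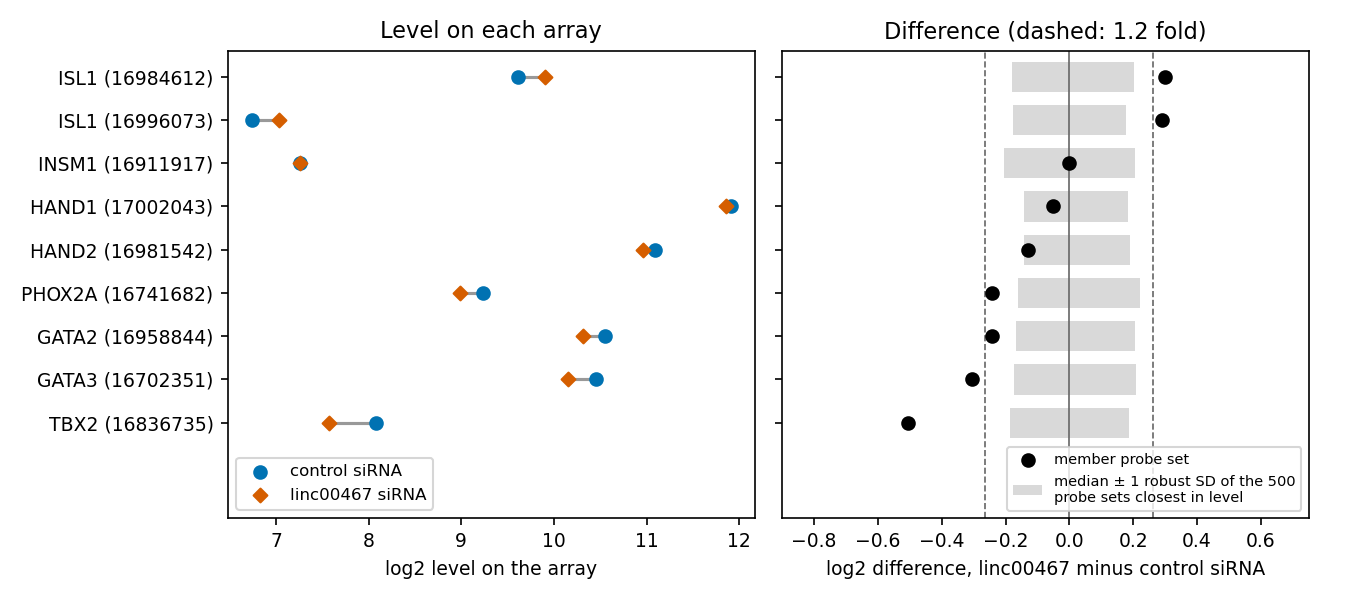
Left, the log2 level of each member probe set on the control siRNA array (circles) and the linc00467 siRNA array (diamonds). Right, the log2 difference (black points) beside the median ± 1 robust SD of the 500 named neighbours in mean level (grey bars), with dashed lines at 1.2 fold. TBX2 at -0.50 lies farthest from its grey bar, ISL1 lies on the other side of 0 at both probe sets, and HAND1, HAND2 and INSM1 lie within their bars.

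TBX2 encodes a T-box factor that acts mainly as a repressor and lies on chromosome 17. At its probe set (16836735) the log2 level was 8.07 on the control array and 7.57 on the knockdown array. This was a log2 difference of -0.50, or 1.42 fold lower, the largest of the set in either direction. The 500 named probe sets closest to TBX2 in mean level, from 7.69 to 7.95, had a median difference of 0.00 and a robust SD of 0.19. TBX2 therefore lay 2.70 robust SDs below 0, and 7.6% of those 500 probe sets were as low or lower. Its relative TBX3, a repressor of the same T-box subfamily, stood at 10.22 on the control array and 10.30 on the knockdown array, a log2 difference of 0.08.

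GATA2 and GATA3 encode zinc finger factors that bind the same core sequence, and in mice GATA3 is needed for sympathetic neurons to make noradrenaline. GATA3 (probe set 16702351, chromosome 10) went from a log2 level of 10.46 to 10.15, a log2 difference of -0.30 or 1.23 fold lower. GATA2 (probe set 16958844, chromosome 3) went from 10.56 to 10.31, a log2 difference of -0.24 or 1.18 fold lower. The pair thus stood 0.06 apart on the log2 scale of differences, less than the robust SD of 0.19 of the 500 probe sets around either of them. Of those 500 probe sets, 12.2% were as low as GATA3 or lower around GATA3, and 14.4% as low as GATA2 or lower around GATA2. The other GATA factor genes measured, GATA1, GATA4, GATA5 and GATA6, had log2 differences between -0.06 and 0.05.

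PHOX2A, the paired-like homeodomain factor that binds the promoter of DBH, went from a log2 level of 9.23 to 8.99 at its probe set (16741682, chromosome 11). The log2 difference of -0.24 was 1.18 fold, close to that of GATA2, and 12.4% of the 500 probe sets of like level were as low or lower. HAND1 and HAND2 encode basic helix-loop-helix factors, of which HAND2 is required for noradrenergic differentiation in mice. HAND2 (probe set 16981542, chromosome 4) went from 11.09 to 10.96, a log2 difference of -0.13. HAND1 (probe set 17002043, chromosome 5) went from 11.91 to 11.86, a log2 difference of -0.05. Both lay within 1 robust SD, which was 0.17 around HAND2 and 0.16 around HAND1.

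ISL1, a LIM homeodomain factor of sympathetic and sensory neurons, was the only member with a higher level. Its probe set 16984612 went from a log2 level of 9.61 to 9.91, and its probe set 16996073 from 6.74 to 7.03. The log2 differences of 0.30 and 0.29 were nearly equal, and each lay beyond 1.2 fold. Around the first 8.0% of the 500 probe sets of like level were as high or higher, and around the second 6.4%. Whether the 2 probe sets share probes, or read the same strand, was not tested. ISL2, its close relative, had log2 differences of 0.12 and -0.08 at 2 probe sets that were not among the brighter ones.

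INSM1, a zinc finger repressor of neuroendocrine cells, had the same log2 level of 7.26 on both arrays (probe set 16911917, chromosome 20). Around it in level, 74 of 500 named probe sets, or 14.8%, also had equal values on both arrays, and over all probe sets 23.7% did. What gives equal values was not tested. INSM2, the related gene, went from 9.33 to 8.86, a log2 difference of -0.47. TBX3, ISL2, GATA1, GATA4, GATA5 and GATA6 were named as close relatives, after their values had been seen.

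**Figure D2:**
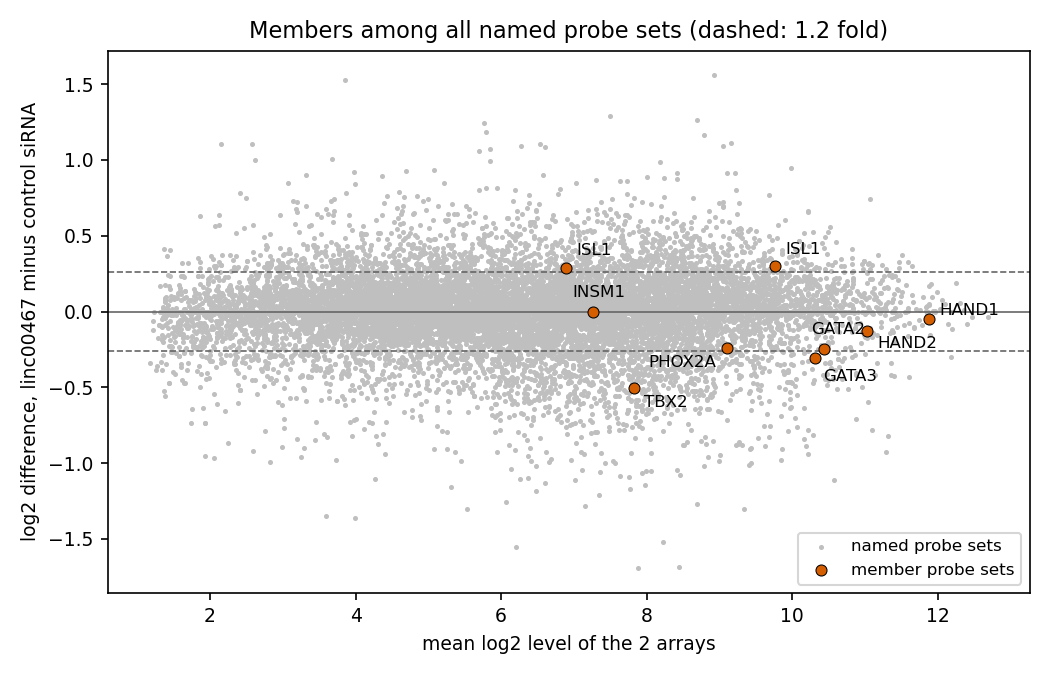
Log2 difference (linc00467 siRNA minus control siRNA) against the mean log2 level of the 2 arrays for 16098 named probe sets (grey) and the 9 member probe sets (orange), with dashed lines at 1.2 fold. The members lie inside the cloud of named probe sets, with TBX2 lowest at -0.50 and the 2 ISL1 probe sets at 0.29 and 0.30.

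Members of the circuit are known to bind each other's regulatory DNA, so the sequence before the start sites was read for the short sequences that such factors bind. RefSeq windows of GRCh38.p14 were given for 6 of the 8 genes, 6 windows for GATA3, 2 for GATA2 and 1 each for PHOX2A, HAND1, HAND2 and ISL1, and the 250 bases before each start were searched on both strands. Windows of TBX2 and INSM1 were not used here. The E-box CANNTG, bound by HAND and other helix-loop-helix factors, was present in 5 of the 12 windows, in 4 of the 6 genes, and in 61.8% of all 35116 windows. The core GATAA of GATA factors was present in 4 of 12 windows, in 4 of the 6 genes, and in 20.4% of all windows. The homeodomain core TAAT was in 4 of 12, in 3 of the 6 genes, and in 47.4% of all, and these matches may overlap. The palindrome CACGTG bound by MYC proteins, which is one form of the E-box, was present in 1 of 12 windows and in 6.34% of all. The GC box GGGCGG bound by Sp1 was present in 8 of 12 windows, in 5 of the 6 genes, and in 42.6% of all windows. With 6 of the 12 windows from GATA3, the windows are not separate members. The shares over all windows are per window, and a gene with more windows can match more often. No share per gene was taken, so the counts of genes have no background here. The T-box site GGTGTGA was in 0 of 12 windows and in 2.76% of all. A match is only a description of these letters.
The windows of 3 genes follow, 5′ to 3′ in the direction of the gene, with matches to the E-box, the GATA core and the homeodomain core in capitals. The one of GATA3, at chr10:8050986-8051235 on the plus strand, is shown because it alone held CACGTG. The one of ISL1, at chr5:51383198-51383447 on the plus strand, belongs to the member that was higher. The one of HAND2, at chr4:173530230-173530479 on the minus strand, held the most matches to the GATA and homeodomain cores.
GATA3: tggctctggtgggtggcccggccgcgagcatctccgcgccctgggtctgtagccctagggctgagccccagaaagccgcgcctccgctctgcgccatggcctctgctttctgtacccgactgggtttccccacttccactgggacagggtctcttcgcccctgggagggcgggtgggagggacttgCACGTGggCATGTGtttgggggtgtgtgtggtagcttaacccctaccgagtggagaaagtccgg
ISL1: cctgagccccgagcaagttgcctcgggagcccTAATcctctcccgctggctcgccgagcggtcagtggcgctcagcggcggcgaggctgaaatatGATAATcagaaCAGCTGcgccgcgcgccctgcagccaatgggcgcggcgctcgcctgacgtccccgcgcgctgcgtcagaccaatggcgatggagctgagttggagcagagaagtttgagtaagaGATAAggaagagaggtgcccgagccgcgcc
HAND2: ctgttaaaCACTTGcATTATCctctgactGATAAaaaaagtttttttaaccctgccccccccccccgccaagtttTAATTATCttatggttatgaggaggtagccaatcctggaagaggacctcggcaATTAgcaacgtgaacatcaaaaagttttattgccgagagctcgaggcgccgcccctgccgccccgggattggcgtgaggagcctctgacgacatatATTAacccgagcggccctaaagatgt
The window of ISL1 held 2 GATA cores and 2 homeodomain cores, that of HAND2 held 3 and 5, and the one shown for GATA3 held neither. The window of PHOX2A held 5 GC boxes and no match to the E-box, GATAA or TAAT. The members' windows had a GC content from 49.6% in HAND2 to 74.8% in one of GATA3, against a median of 58.0% over all windows.

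RNAs transcribed beside the members were read where they were named. HAND2-AS1, the long noncoding RNA that starts beside HAND2 on the opposite strand, went from a log2 level of 10.48 to 9.85 at its probe set (16972446), a log2 difference of -0.64. It lay 1.2 fold or more below control where HAND2 itself did not, and 2.6% of the 500 named probe sets closest to HAND2-AS1 in mean level were as low or lower. GATA3-AS1 had log2 differences of 0.00 and 0.01 at its 2 probe sets, beside the -0.30 of GATA3. ISL1-DT, the divergent transcript of ISL1, had a log2 difference of 0.00 at a mean level of 5.12, not among the brighter ones.

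Other transcription factors of the adrenergic circuit did not share one direction. Of 18 listed, 13 were measured, of which 6 were below 0 and 7 above, with a median of 0.00. Over all named probe sets, 36.2% were below 0 and 40.9% above. By 1.2 fold or more, 7.69% lay below and 15.4% above control, beside 9.78% and 8.5% of all named probe sets. These shares come from 1 and 2 genes and are no result about the list. ZNF536, a zinc finger gene of neuronal cells, was the 1 gene that lay 1.2 fold or more below control, from a log2 level of 7.45 to 6.73, a difference of -0.72. HEY1, a repressor downstream of Notch, went from 6.58 to 7.04, a difference of 0.46. SATB1, a chromatin organizer, had 0.57 outside the brighter range and was chosen after its values had been seen, to complete the count of 2 that lay as far above control. The other 10 genes had log2 differences from -0.20 to 0.17.

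Partners and cofactors of the 8 factors were described as a list. Of 31 listed, 24 were measured, with a median of 0.00, and 3 lay below and 1 above control by 1.2 fold or more. That is 12.5% and 4.17% of the list, beside 9.78% and 8.5% of all named probe sets, and is no result about the list. The lower ones were HDAC1, a histone deacetylase, with -0.38, TCF3, the E-protein that pairs with HAND proteins, with -0.30, and the homeobox gene MEIS1 with -0.27. KDM1A, the demethylase that INSM1 recruits, went from 10.02 to 10.29, a difference of 0.27. The other E-protein genes TCF4 and TCF12 had 0.22 and -0.01, and LDB1, the scaffold of LIM proteins such as ISL1, had 0.04. TCF4, TCF12 and LDB1 were named with their values known.
Among 35 measured paralogues of the 8 factors, of 44 listed, the median was 0.00, and 2 lay below and 2 above control by 1.2 fold or more. These were INSM2 at -0.47, TBX22 at -0.45, the T-box gene MGA at 0.27 and TCF15 at 0.65, the last with a mean level of 4.80, outside the brighter range, and chosen after its values had been seen. Each count of 2 is 5.71% of the paralogues, beside 9.78% of all named probe sets below control and 8.5% above it. These counts are no result about the paralogues. The list held 13 brighter genes, and 8 of its 35 genes had equal values on both arrays, beside 22.9% of all named probe sets.

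**Figure D3:**
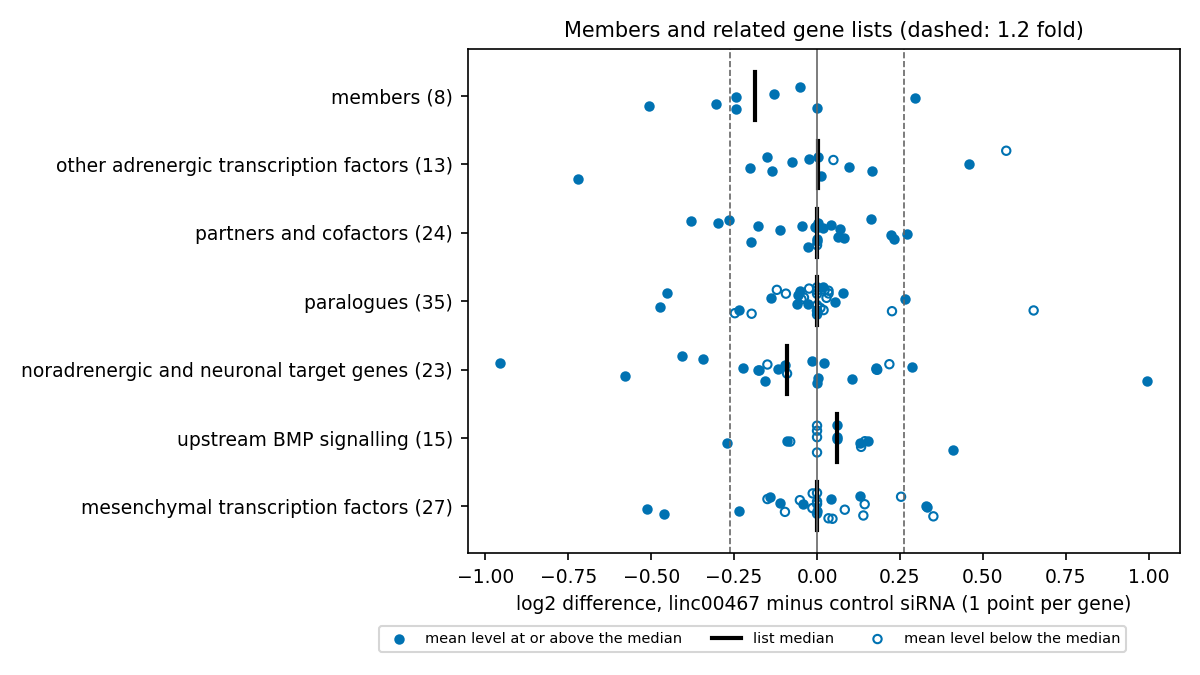
Log2 difference (linc00467 siRNA minus control siRNA) of each measured gene in 7 lists, with the number of genes in brackets, filled points for brighter genes, open points for the others and black bars for list medians. The median of the members is -0.19, that of the noradrenergic and neuronal target genes -0.09 and that of upstream BMP signalling 0.06.

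Genes that the circuit is known to drive were read as its targets. Of 36 noradrenergic and neuronal genes, 23 were measured, with a median of -0.09, and 13 were below 0, 1 at 0 and 9 above. Of all named probe sets, 36.2% were below 0 and 40.9% above, and of the brighter ones 42.5% and 46.0%. No spread was taken for a list median, so whether -0.09 differs from 0 was not tested. By 1.2 fold or more, 4 lay below and 2 above control, which is 17.4% and 8.70% of the list. The shares were 9.78% and 8.5% of all named probe sets, and 13.4% and 10.7% of the brighter ones. Of the 23 genes, 19 were brighter. These shares come from 4 and 2 genes and are no result about these genes as a group. GCH1, which makes the cofactor of TH, went from a log2 level of 6.84 to 5.89, a difference of -0.96. CHGA went from 10.26 to 9.68 and DBH from 9.68 to 9.27, differences of -0.58 and -0.41. CYB561, the granule cytochrome that supplies electrons to DBH, had -0.35. In the other direction, the adrenergic receptor gene ADRA2A went from 5.35 to 6.34, a difference of 1.00, and the neuropeptide gene NPY had 0.29. TH had -0.12, DDC, the next enzyme, 0.02 and the receptor gene RET 0.18. CYB561, NPY, TH, DDC and RET were named for their roles or to complete counts, after their values had been seen.

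Factors of the mesenchymal state were read beside them. Of 27 measured of 34 listed, 2 lay below and 3 above control by 1.2 fold or more, 11 were among the brighter genes and the median was 0.00. The 2 counts are 7.41% and 11.1% of the list, beside 9.78% and 8.5% of all named probe sets, and are no result about it. SNAI2, a zinc finger repressor of neural crest cells, went from 11.43 to 11.76, a difference of 0.33, and IRF2, an interferon regulatory factor, also had 0.33. SMAD3, chosen after its values had been seen, had 0.35 outside the brighter range. SOX9, a neural crest factor, went from 8.27 to 7.76 and JUN, an AP-1 subunit, from 8.19 to 7.73, differences of -0.51 and -0.46. PRRX1, a defining factor of the state, had log2 levels of 5.18 on the control and 5.16 on the knockdown array, outside the brighter range.
Of 9 measured mesenchymal markers, LUM, the lumican gene, had a difference of 1.56, and the other 8 were within 1.2 fold. LUM is 11.1% of the list, beside 8.5% of all named probe sets higher by 1.2 fold or more. The summed linear signal of the list was 657 on the control array and 1201 on the knockdown array, and without LUM it was 374 and 368, so that the higher sum was that of LUM alone. FN1 and CD44, a pair of its defining markers, lay outside the brighter range with equal values on both arrays. PRRX1, FN1 and CD44 were named as defining markers, after their values had been seen.
Among markers of other cell types, 0 of 7 Schwann and neural crest genes, 0 of 4 blood cell genes, 1 of 5 endothelial genes and 1 of 2 adrenal cortex genes differed by 1.2 fold or more. These were ESAM, with 0.36, and STAR, with -0.61, both outside the brighter range and chosen after their values had been seen. Of all named probe sets, 9.78% lay 1.2 fold or more below control and 8.5% above it, and lists this short give no result beside those shares. The summed linear signals of these lists were 270 and 279 for Schwann, 208 and 199.5 for blood, 132 and 152 for endothelial and 50.5 and 37.4 for adrenal cortex genes, control siRNA first. Their part in the differences of the 8 factors was not tested.

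**Figure D4:**
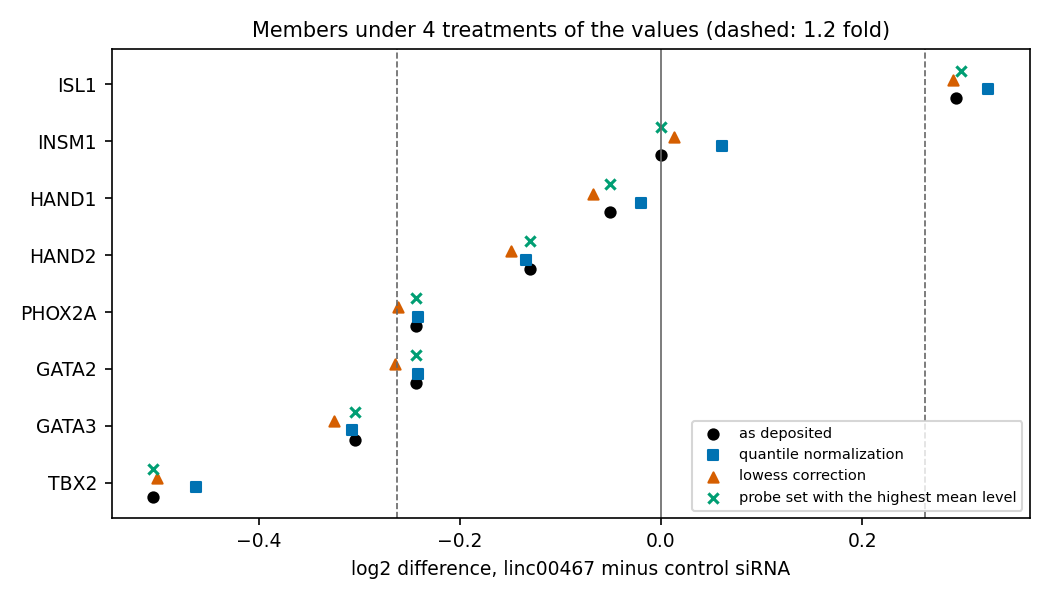
Log2 difference (linc00467 siRNA minus control siRNA) of the 8 genes as deposited, after quantile normalization, after a lowess correction and with the ISL1 probe set of highest level, with dashed lines at 1.2 fold. The order from TBX2 to ISL1 changes little, TBX2 lies between -0.50 and -0.46 and ISL1 between 0.29 and 0.33.

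The differences of the 8 factors depended little on scaling. With quantile normalization and lowess correction TBX2 lay between -0.50 and -0.46, GATA3 between -0.33 and -0.30 and ISL1 between 0.29 and 0.33. GATA2, at -0.24 as deposited and just within 1.2 fold, had -0.26 with the lowess correction, which brought the count below control from 2 to 3. INSM1, equal on both arrays as deposited, had 0.06 with quantile normalization.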

How the data were processed

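Gene expression was measured in BE(2)-C cells on Affymetrix HuGene-2_0-st arrays, 1 for control siRNA and 1 for linc00467 siRNA. The authors deposited a log2 level per probe set and array. According to the methods they worked in R with Bioconductor, and MAS5 appears in the submitters' processing notes. Versions, normalization and the array's genome build were not given in the sources used here. The sample labels name RPMI as the medium, the methods Dulbecco's modified Eagle's medium.

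Levels were used as deposited, and differences are linc00467 siRNA minus control siRNA. Symbols came from the platform annotation, 1 each for 16098 probe sets, and all 16098 matched the RefSeq table of GRCh38.p14 by gene number, with 0 symbols changed. The other 37519 probe sets are unnamed here. Probe sets of a gene were averaged. The spread around a probe set was taken over the 500 named neighbours in mean level, without those of the same gene.

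The named genes were the 8 factors, LINC00467, the divergent RNAs and, per list, up to 4 brighter genes past 1.2 fold, largest first. The members and the gene lists were chosen with earlier results of these data known. Alternatives were centring, quantile normalization, a lowess correction with a fraction of 0.2, a floor at the median level of 87 keratin-associated and olfactory receptor probe sets (3.67 for control siRNA and 3.74 for linc00467 siRNA), the ISL1 probe set of highest level, a restriction to brighter genes (a mean level of 5.68 or more), other folds and other backgrounds. Centring, quantile normalization and the lowess correction were tested on simulated data for removing a shift added to the knockdown array. The floor was not held to that test, and the simulated noise left no values equal between arrays, unlike in the data. Python 3.11.15, numpy 2.4.6, pandas 2.3.3, scipy 1.17.1, statsmodels 0.14.6 and matplotlib 3.10.9 were used.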

Additional observations from a re-analysis of the deposited data

How the results depend on the processing

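Several alternatives could not move the 8 genes, and nothing is read from them. The median difference was already 0.00 before centring, all member levels lay above the floor, all members were among the brighter genes, and only ISL1 had a choice of probe set. With the lowess correction the count of lower members was 3 in place of 2. With a fold of 1.1 the count of lower members was 4 in place of 2, beside 18.4% of named probe sets, and with a fold of 1.5 it was 0, beside 1.93%. The count of higher members was 0 with a fold of 1.5, beside 1.09%. Quantile normalization moved the differences of the 8 genes by at most 0.061 and the lowess correction by at most 0.021. The median difference of the 8 genes lay between -0.21 and -0.19. Of named probe sets past 1.2 fold, 53.5% were lower as deposited and 45.9% with quantile normalization. Over all probe sets, 12.3% were lower and 8.80% higher by at least 1.2 fold. No paired analysis was possible because each group had 1 array.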

Other observations

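BMP signalling, which acts upstream of the adrenergic factors in development, was measured for 15 of 21 listed genes. SMAD6, an inhibitor of BMP signalling, stood at 7.98 on the control array and 8.39 on the knockdown array, a log2 difference of 0.41. SMAD1, which carries the BMP signal to the nucleus, went from 6.27 to 5.997, a difference of -0.27. The other 13 genes were within 1.2 fold, 3 of the 15 were below 0, 4 were at 0 and 8 were above 0, and the median was 0.06. Over all named probe sets, 36.2% were below 0, 22.9% at 0 and 40.9% above. SMAD1 and SMAD6 are each 6.67% of the list, beside 9.78% of all named probe sets below control and 8.5% above it by 1.2 fold. This is no result about the list.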
